A study of Mus musculus with 10 samples.

Results

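Small leucine-rich proteoglycans (SLRPs) are secreted proteins of the connective tissue matrix, and 10 genes of the family were followed: Bgn, Dcn, Aspn, Lum, Fmod, Prelp, Kera, Omd, Ogn and Podn. They were taken by gene symbol, though with earlier results of these data known, and all 10 were found among the 55385 genes of the table. Of these 10, 9 had enough counts to be tested, as did 15064 genes in all, and Kera did not. RNA was sequenced from 10 samples of a mouse ovarian tumour line, named APV245 by the samples and APC245 by the design text, which came from a tumour with Arid1a and Pik3ca mutations. Of these, 5 carried the label IL6 shRNA1 (genotype IL6 knockdown), and 5 the label control shRNA (genotype WT (control shRNA)), a non-mammalian shRNA in the pLKO.1-puro vector. Both groups share the Arid1a/Pik3ca co-mutated line, the absence of a treatment and 1 batch label. The sample labels describe the line growing in DMEM with fetal bovine serum, whereas the design text describes subcutaneous tumours. A single shRNA against Il6 was used in these samples, and whether each line was a clone or a pool, the age of the hosts and the cells the hosts still had are not given in the sources that were used.

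An SLRP has a core protein of leucine-rich repeats, usually with chains of chondroitin, dermatan or keratan sulfate. Most SLRPs bind collagen fibrils and set their width and spacing, and several also bind growth factors of the TGF-beta family or cell surface receptors. In tumours they are known mainly as products of fibroblasts and other mesenchymal cells, with decorin and lumican studied as matrix proteins that restrain growth factor signalling. The genes fall into class I (Bgn, Dcn, Aspn), class II (Lum, Fmod, Prelp, Kera, Omd), class III (Ogn) and a non-canonical class (Podn).

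Among the 9 tested genes, Lum and Dcn fell, Ogn rose, and the remaining 6 did not pass the test. Lum mRNA fell by 48.8% and Dcn by 34.8% in the libraries labelled IL6 shRNA1, and Ogn rose 1.68-fold. Bgn, the most abundant member, differed by less than the spread between libraries. The threshold for a call was an adjusted p under 0.05 by edgeR's quasi-likelihood test with Benjamini-Hochberg adjustment over all tested genes. Of all 15064 tested genes, 11.8% were called in either direction, 5.62% as higher and 6.16% as lower. The 5 libraries of 1 group did not overlap the 5 of the other for 3 of the 9 members, against 10.9% of all tested genes. Of these 3, 1 was higher, against 4.81% of all tested genes, and 2 were lower, against 6.13%. The median log2 fold change (IL6 shRNA1 over control) was 0.08 over the 9 members and -0.013 over all tested genes. In such bulk RNA, fewer cells of a type and less RNA per cell cannot be told apart.

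The libraries held 17905397 to 19934278 counts in the IL6 shRNA1 group and 18224751 to 22682346 counts in the control group. Il6, the target of the shRNA, showed no decrease: the libraries labelled IL6 shRNA1 had 1.73 ± 0.41 CPM, against 1.26 ± 0.64 CPM in control libraries (SD, n = 5 each). Its log2 fold change was 0.44 ± 0.36 (SE, adjusted p = 0.436 in edgeR). CPM here is the count scaled to library size with the TMM factors of edgeR, and values per library are given in the order of the numbers in the sample titles, which imply no order in time. Along the first principal component (54.3% of the variance), IL6 shRNA1 library 5 and control libraries 2 and 5 lay farthest from the rest. Markers of other cell types were present. Of 22 tested leukocyte markers 8 were called as higher, 0 as lower and 14 not, and their summed level was 2898 to 5805 CPM in the IL6 shRNA1 libraries and 1038 to 3001 CPM in the control libraries. That count of 8 was 0 without IL6 shRNA1 library 2 or control library 5, 1 without IL6 shRNA1 library 3, 4 or 5, 3 without control library 4 and 5 without control library 2 or 3. It was 11 without IL6 shRNA1 library 1 or control library 1, 13 in DESeq2, 3 with library totals alone as the scaling and 0 with no filter on low counts. Of 21 tested fibroblast and pericyte markers 3 were called as higher, 1 as lower and 17 not, with sums of 3240 to 4032 CPM in the IL6 shRNA1 libraries and 2933 to 3613 CPM in the control libraries. Their count of 3 was 0 without IL6 shRNA1 library 5, 1 without IL6 shRNA1 library 2, 3 or 4 or control library 2 or 3, and 2 without control library 5, and DESeq2 called 5 as higher and 2 as lower. Without the 3 farthest libraries, 0 leukocyte and 0 fibroblast and pericyte markers were called as higher in edgeR. Endothelial markers had 0 of 12 called at 245 to 559 CPM in IL6 shRNA1 libraries and 172 to 310 CPM in control libraries. Of 11 tested tumour epithelial and mesothelial markers, 2 were called as higher. Their list summed to 365 to 385 CPM in IL6 shRNA1 libraries and 154 to 368 CPM in control libraries. That count of 2 was 1 to 3 when single libraries were left out and 4 in DESeq2. It was 0 without the 3 farthest libraries and with either the leukocyte or the fibroblast and pericyte score as a covariate. Of the epithelial markers, Cldn3, Cldn4 and Pax8 were too low to be tested in these ovarian tumour samples. Summed muscle markers ran at 48.2 to 9281 CPM in IL6 shRNA1 libraries and 19.99 to 1032 CPM in control libraries, skin markers at 90.8 to 940 CPM in IL6 shRNA1 libraries and 21.5 to 104 CPM in control libraries, with 0 of the 8 muscle and 0 of the 4 skin markers called in edgeR. At an unadjusted p under 0.05 in edgeR there were 6 of the 12 endothelial, 5 of the 8 muscle and 4 of the 4 skin markers. The share of all tested genes under that threshold is not given, so these and the later counts at it have no baseline. DESeq2 called 4, 3 and 1 of these endothelial, muscle and skin markers, and limma voom 0 of each. Over all tested genes, DESeq2 called 3027 and limma voom 1807, against 1775 in the main edgeR fit. Summed fat markers, of which only Cfd could be tested (log2 fold change 2.23, not called), ran at 3.10 to 35.7 CPM in IL6 shRNA1 libraries and 0.672 to 8.53 CPM in control libraries, and blood markers at 7.21 to 20.6 CPM in IL6 shRNA1 libraries and 4.80 to 13.01 CPM in control libraries. Among 12 technical signs (immediate early, heat shock, mitochondrial and nuclear RNAs), 1 was called, Fos, which was higher (log2 fold change 0.78, adjusted p = 0.0252 in edgeR), and this call was lost without IL6 shRNA1 library 2 or 5 or control library 2 or 5. The part of these cell types and signs in the member values was not tested beyond the covariate fits given below for single genes.

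**Figure D1:**
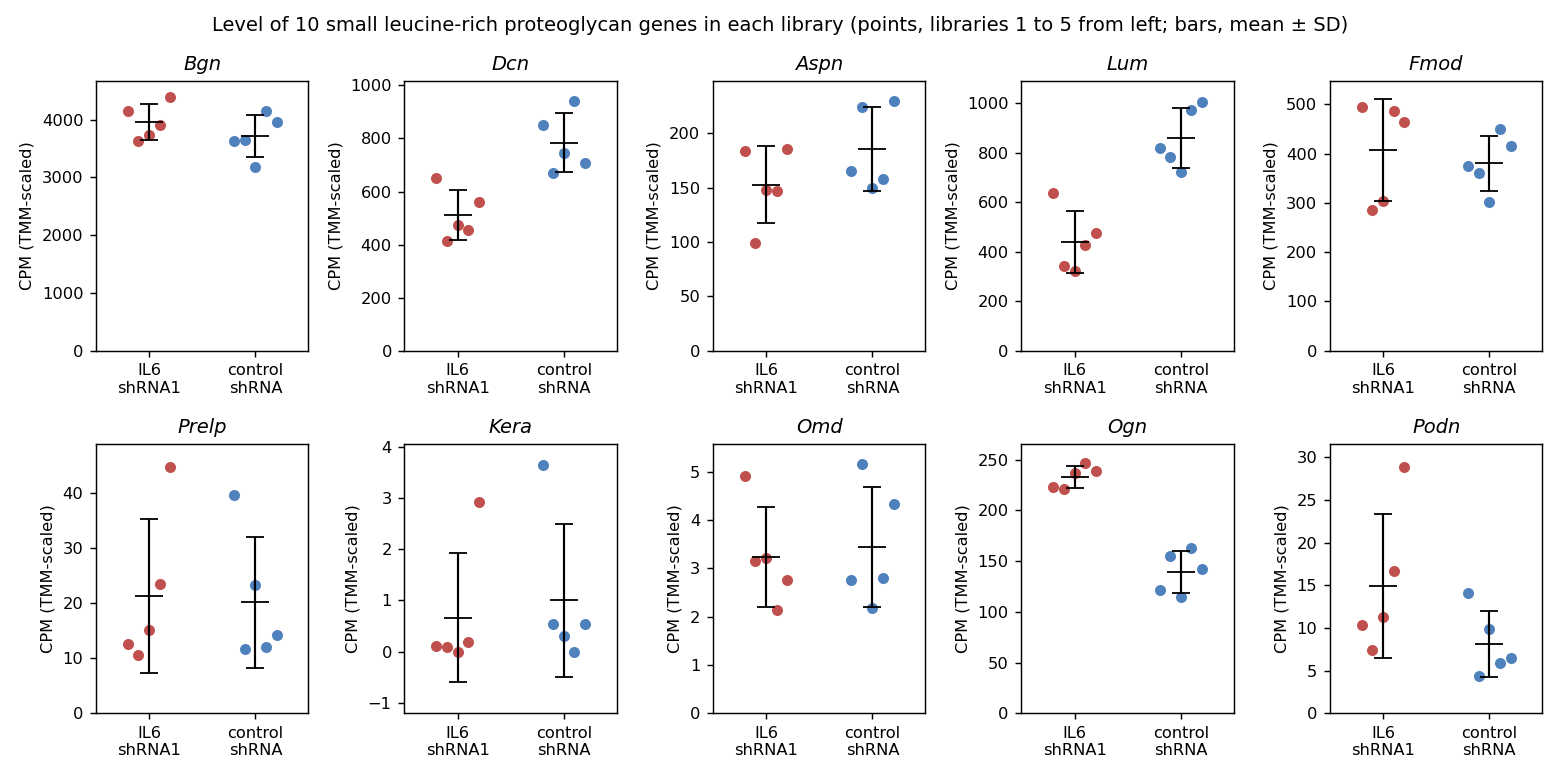
Level of each of the 10 genes (y axes, TMM-scaled CPM) in each of the 5 IL6 shRNA1 libraries (red) and the 5 control libraries (blue), with the mean ± SD as bars and libraries 1 to 5 from left to right in each group. The groups do not overlap for Dcn, Lum and Ogn, and Kera is near 0 except in 1 library of each group.

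Among the class I genes, Bgn encodes biglycan, a matrix proteoglycan that also acts as a ligand of the Toll-like receptors TLR2 and TLR4 when released. Bgn (ENSMUSG00000031375.17, chromosome X, 73483602 to 73495933, mm10) stood at 4153, 3625, 3728, 3909 and 4386 CPM in the IL6 shRNA1 libraries, against 3627, 3650, 3188, 4145 and 3965 CPM in the control libraries. The groups overlapped over most of their range. The means were 3960 ± 311 CPM in IL6 shRNA1 libraries and 3715 ± 366 CPM in control libraries (SD, n = 5 each), with a log2 fold change of 0.09 ± 0.09 (SE, 95% interval -0.10 to 0.28, adjusted p = 0.503 in edgeR).

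Dcn encodes decorin, which binds collagen fibrils and TGF-beta and can bind the receptors EGFR and MET. Dcn (ENSMUSG00000019929.16, chromosome 10, 97479609 to 97518143) stood at 651, 415, 475, 455 and 560 CPM in the IL6 shRNA1 libraries, against 851, 672, 746, 942 and 707 CPM in the control libraries. IL6 shRNA1 library 1, the highest of its group, lay just under control library 2, the lowest of its own, so that the groups were separate by a small margin. The means were 511 ± 94.3 CPM in IL6 shRNA1 libraries and 783 ± 111 CPM in control libraries (SD, n = 5 each). Dcn fell with a log2 fold change of -0.62 ± 0.13 (SE, 95% interval -0.91 to -0.32, adjusted p = 0.0166 in edgeR). The call was kept without any single library, with an adjusted p of at most 0.0461. It was not kept without the 3 farthest libraries (log2 fold change -0.76, adjusted p = 0.057) or with a covariate for the leukocyte score (-0.63, adjusted p = 0.137), the fibroblast and pericyte score (-0.62, adjusted p = 0.127) or the muscle score (-0.58, adjusted p = 0.0577).

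Aspn encodes asporin, a class I core protein that carries no glycosaminoglycan chain and binds TGF-beta1 and collagen. Aspn (ENSMUSG00000021388.14, chromosome 13, 49544443 to 49567565) stood at 184, 98.7, 148, 147 and 185 CPM in the IL6 shRNA1 libraries, against 165, 225, 149, 158 and 230 CPM in the control libraries. The groups overlapped, and the log2 fold change was -0.28 ± 0.18 (SE, 95% interval -0.69 to 0.13, adjusted p = 0.326 in edgeR).

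Among the class II genes, Lum encodes lumican, a keratan sulfate proteoglycan that regulates collagen fibrils and is needed for a clear cornea. Lum (ENSMUSG00000036446.5, chromosome 10, 97565128 to 97572703) stood at 637, 341, 323, 427 and 475 CPM in the IL6 shRNA1 libraries, against 820, 784, 722, 972 and 1004 CPM in the control libraries. Each IL6 shRNA1 library lay below each control library, and library 1 was the highest of the IL6 shRNA1 group for Lum as for Dcn. The means were 441 ± 126 CPM in IL6 shRNA1 libraries and 860 ± 122 CPM in control libraries (SD, n = 5 each). Lum fell with a log2 fold change of -0.97 ± 0.18 (SE, 95% interval -1.36 to -0.57, adjusted p = 0.00963 in edgeR). The call was kept without any single library (log2 fold change -1.12 to -0.86, adjusted p at most 0.0273) and with the muscle score as a covariate (-0.81, adjusted p = 0.0342). It was not kept without the 3 farthest libraries (-0.96, adjusted p = 0.0946) or with a covariate for the leukocyte score (-0.81, adjusted p = 0.15) or the fibroblast and pericyte score (-0.88, adjusted p = 0.12).

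Fmod encodes fibromodulin, a class II proteoglycan abundant in tendon that shares collagen binding with lumican. Fmod (ENSMUSG00000041559.7, chromosome 1, 134037254 to 134048277) stood at 494, 285, 304, 486 and 465 CPM in the IL6 shRNA1 libraries, against 376, 360, 301, 449 and 415 CPM in the control libraries. The IL6 shRNA1 libraries fell into 3 high and 2 low values on both sides of most control values, and the log2 fold change was 0.10 ± 0.17 (SE, 95% interval -0.29 to 0.48, adjusted p = 0.746 in edgeR).

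Prelp encodes a matrix protein with a basic region that binds heparan sulfate and links basement membranes to collagen. Prelp (ENSMUSG00000041577.5, chromosome 1, 133910304 to 133921414) stood at 12.7, 10.57, 15.1, 23.5 and 44.7 CPM in the IL6 shRNA1 libraries, against 39.6, 11.7, 23.3, 12 and 14.2 CPM in the control libraries. A single library of each group, IL6 shRNA1 library 5 and control library 1, was well above the rest. The log2 fold change was 0.08 ± 0.47 (SE, 95% interval -0.97 to 1.13, adjusted p = 0.933 in edgeR), and its sign changed without IL6 shRNA1 library 5 (-0.38).

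Kera encodes keratocan, a keratan sulfate proteoglycan best known from the cornea. Kera (ENSMUSG00000019932.8, chromosome 10, 97606879 to 97613692) had 2, 2, 0, 4 and 55 counts in the IL6 shRNA1 libraries, against 86, 11, 7, 0 and 9 counts in the control libraries. IL6 shRNA1 library 5 and control library 1 again held most of the counts. The mean level was 0.662 ± 1.26 CPM in IL6 shRNA1 libraries and 1.00 ± 1.49 CPM in control libraries (SD, n = 5 each), which an exact two-sided permutation test did not separate (p = 0.492). The difference of -0.34 CPM (IL6 shRNA1 minus control) changed sign without control library 1, to 0.33 CPM.

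Omd encodes osteomodulin, also called osteoadherin, a keratan sulfate proteoglycan of bone matrix. Omd (ENSMUSG00000048368.9, chromosome 13, 49582462 to 49592822) stood at 4.92, 3.16, 3.22, 2.14 and 2.75 CPM in the IL6 shRNA1 libraries, against 2.76, 5.16, 2.19, 2.79 and 4.33 CPM in the control libraries. The groups overlapped, with a log2 fold change of -0.09 ± 0.28 (SE, 95% interval -0.71 to 0.54, adjusted p = 0.865 in edgeR).

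Ogn, the class III gene among the 10, encodes osteoglycin, also called mimecan, a collagen-binding protein of bone, vessel wall and cornea. Ogn (ENSMUSG00000021390.6, chromosome 13, 49608046 to 49624501) stood at 223, 221, 236, 246 and 239 CPM in the IL6 shRNA1 libraries, against 122, 155, 114, 163 and 142 CPM in the control libraries. Each IL6 shRNA1 library lay above each control library, and the IL6 shRNA1 values were close together. The means were 233 ± 10.8 CPM in IL6 shRNA1 libraries and 139 ± 20.8 CPM in control libraries (SD, n = 5 each). Ogn rose with a log2 fold change of 0.74 ± 0.10 (SE, 95% interval 0.53 to 0.96, adjusted p = 0.00221 in edgeR). It was called as higher under all 26 alternative settings, covariates for the leukocyte, fibroblast and pericyte, and muscle scores included, with log2 fold changes of 0.69 to 0.89.

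Podn, of the non-canonical class, encodes podocan, a collagen-binding protein of the glomerulus and vessel wall. Podn (ENSMUSG00000028600.15, chromosome 4, 108014791 to 108096445) stood at 10.4, 7.41, 11.3, 16.6 and 28.8 CPM in the IL6 shRNA1 libraries, against 14.1, 4.33, 9.88, 5.85 and 6.53 CPM in the control libraries. As for Prelp and Kera, IL6 shRNA1 library 5 and control library 1 were the highest of their groups. The log2 fold change was 0.87 ± 0.41 (SE, 95% interval -0.05 to 1.79, adjusted p = 0.18 in edgeR), and it was 0.20 without the 3 farthest libraries, 0.015 with the leukocyte score as a covariate, 0.016 with the fibroblast and pericyte score and 0.43 with the muscle score. Podn shares its position and strand with Scp2, whose log2 fold change was -0.04 (adjusted p = 0.731 in edgeR), and reads in the shared stretch may be counted for either.

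**Figure D2:**
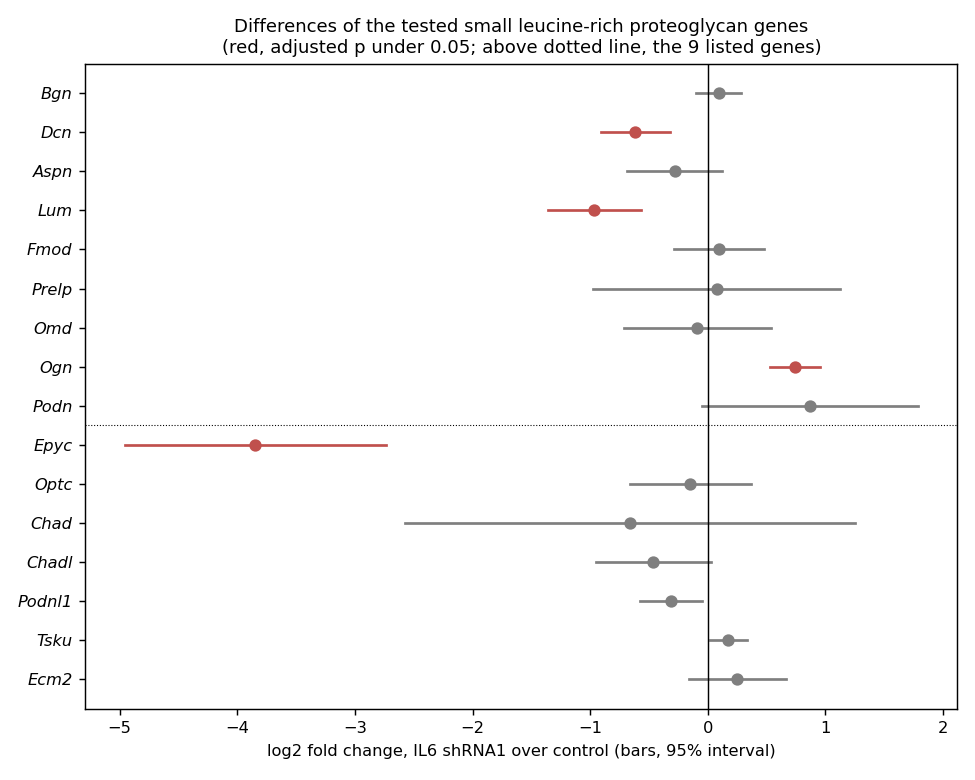
Log2 fold change of IL6 shRNA1 over control libraries (x axis) with its 95% interval for the 9 tested listed genes and, under the dotted line, 7 further SLRP family genes, 5 libraries per group. Red marks an adjusted p under 0.05 in edgeR: Dcn, Lum and Epyc lie left of 0, and Ogn lies right of it.

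The remaining 8 genes of the family served as a comparison, and 7 of them could be tested. Of these, 1 was called as lower and 0 as higher, with a median log2 fold change of -0.31. Epyc encodes epiphycan, a class III proteoglycan known from cartilage, and it had the largest difference of all tested SLRP genes. Epyc stood at 0.695, 0.296, 0.273, 0.487 and 0.212 CPM in the IL6 shRNA1 libraries, against 1.74, 4.97, 4.08, 9.98 and 8.01 CPM in the control libraries. Each IL6 shRNA1 library lay below each control library, at 4 to 13 counts in IL6 shRNA1 libraries and 41 to 193 counts in control libraries. Epyc fell by 93.1%, with a log2 fold change of -3.85 ± 0.50 (SE, 95% interval -4.96 to -2.74, adjusted p = 0.00228 in edgeR). It was called as lower under all 26 alternative settings, with log2 fold changes of -4.13 to -1.39, the smallest of them on the FPKM scale with a pseudocount of 1. Optc, Chad, Chadl, Podnl1, Tsku and Ecm2 did not pass the test, with log2 fold changes of -0.66 to 0.25, and Nyx was too low to be tested.

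On the FPKM scale, which divides by gene length and so allows levels of different genes to be set side by side, the summed level of the 10 genes overlapped between the groups. It was 1204 ± 123 FPKM in IL6 shRNA1 libraries and 1346 ± 123 FPKM in control libraries (SD, n = 5 each). What each gene held of that sum differed. Bgn made up 54.1 ± 3.32% of the sum in IL6 shRNA1 libraries and 45.1 ± 0.564% in control libraries, and the groups did not overlap (49.5 to 58.0% in IL6 shRNA1 and 44.3 to 45.9% in control libraries). Lum made up 14.7 ± 2.51% in IL6 shRNA1 libraries and 25.9 ± 1.30% in control libraries, again with no overlap. Ogn held 7.63 ± 0.960% in IL6 shRNA1 libraries and 4.01 ± 0.412% in control libraries, and Dcn held 7.23 ± 0.627% in IL6 shRNA1 libraries and 9.96 ± 1.33% in control libraries. The shares of 1 library sum to 100%, so they are not independent of each other, and they were not tested.

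**Figure D3:**
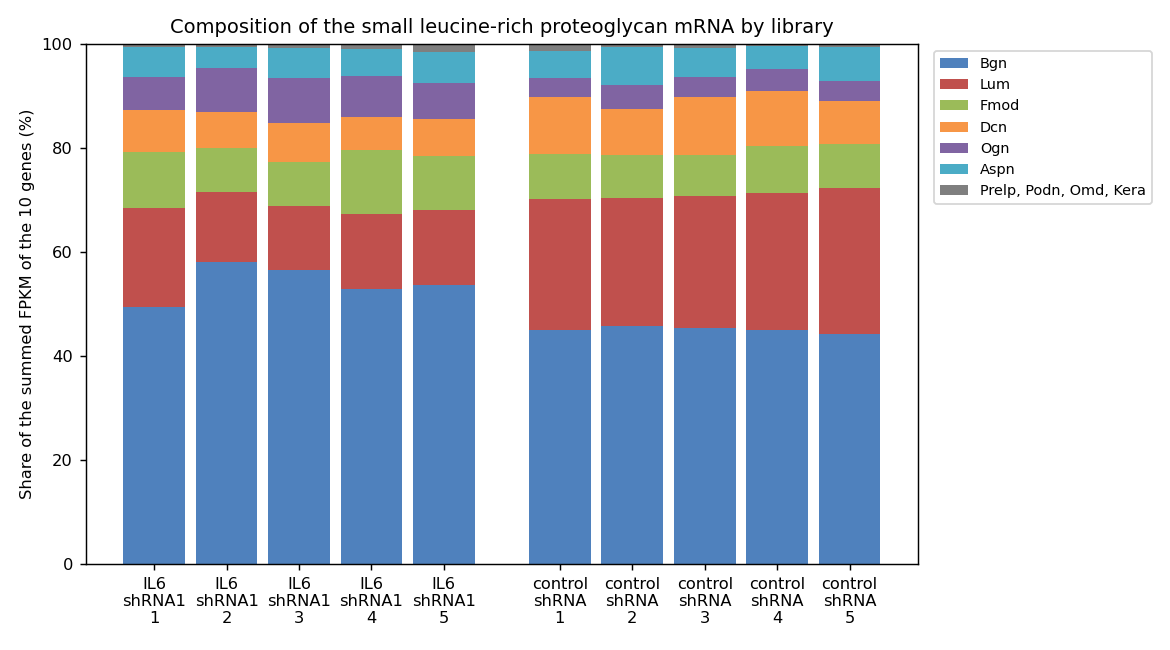
Share of the summed FPKM of the 10 genes (y axis, %) held by each gene in each library, with the 5 IL6 shRNA1 libraries left of the 5 control libraries. The red Lum and orange Dcn segments are smaller and the violet Ogn and blue Bgn segments larger in each IL6 shRNA1 library.

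By mean FPKM, the order was Bgn, Lum, Fmod, Ogn, Dcn and Aspn in IL6 shRNA1 libraries and Bgn, Lum, Dcn, Fmod, Aspn and Ogn in control libraries, with Prelp, Podn, Omd and Kera next in both. Ogn averaged 91.02 ± 6.83 FPKM and Dcn 87.2 ± 12.8 FPKM in IL6 shRNA1 libraries, so these neighbours lay within their spread there, whereas Ogn averaged 53.9 ± 6.90 FPKM and Dcn 134 ± 23.9 FPKM in control libraries. Within each library, Ogn FPKM was 1.113 to 2.05 times Aspn FPKM in IL6 shRNA1 libraries and 0.567 to 0.946 times in control libraries. Lum FPKM was 0.216 to 0.382 times Bgn FPKM in IL6 shRNA1 libraries and 0.535 to 0.631 times in control libraries. Lum over Dcn ran from 1.62 to 2.33 in IL6 shRNA1 libraries and 2.30 to 3.39 in control libraries, a narrow overlap. These pairs were chosen after the levels had been seen, so their ratios are given as a description with no p.

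Most SLRP genes lie in small groups on the chromosomes. Dcn, Lum, Kera and Epyc follow each other on chromosome 10 with gaps of 47.0, 34.2 and 30.4 kb, and its 3 tested members, Dcn, Lum and Epyc, all fell. Within 1 Mb of that group, the single other tested gene was Btg1, at a log2 fold change of 0.07 (adjusted p = 0.669 in edgeR), and the median of the 745 tested genes of chromosome 10 was -0.05. Of those 745 genes, 27 were called as higher and 56 as lower. Ecm2, Aspn, Omd and Ogn follow each other on chromosome 13 with gaps of 11.7, 14.9 and 15.2 kb, and of these 4 only Ogn was called. The 16 other tested genes within 1 Mb held 0 calls in edgeR, with a median log2 fold change of 0.09 and a range of -0.34 to 2.13. Of these 16, 5 had an unadjusted p under 0.05 in edgeR, and DESeq2 called 3 and limma voom 0. Cenpp overlaps Ecm2, Aspn, Omd and Ogn on the opposite strand, with 1567 counts over all 10 libraries and a log2 fold change of -0.05 (adjusted p = 0.804 in edgeR). No source used here says whether counting used strand. Optc, Prelp and Fmod lie on chromosome 1, and none of them was called, while 7 of the 24 other tested genes within 1 Mb were called as higher and 0 as lower. Of the 917 tested genes of chromosome 1, 268 were called as higher and 1 as lower, with a median log2 fold change of 0.32, above the 0.08 of Prelp and the 0.10 of Fmod.

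**Figure D4:**
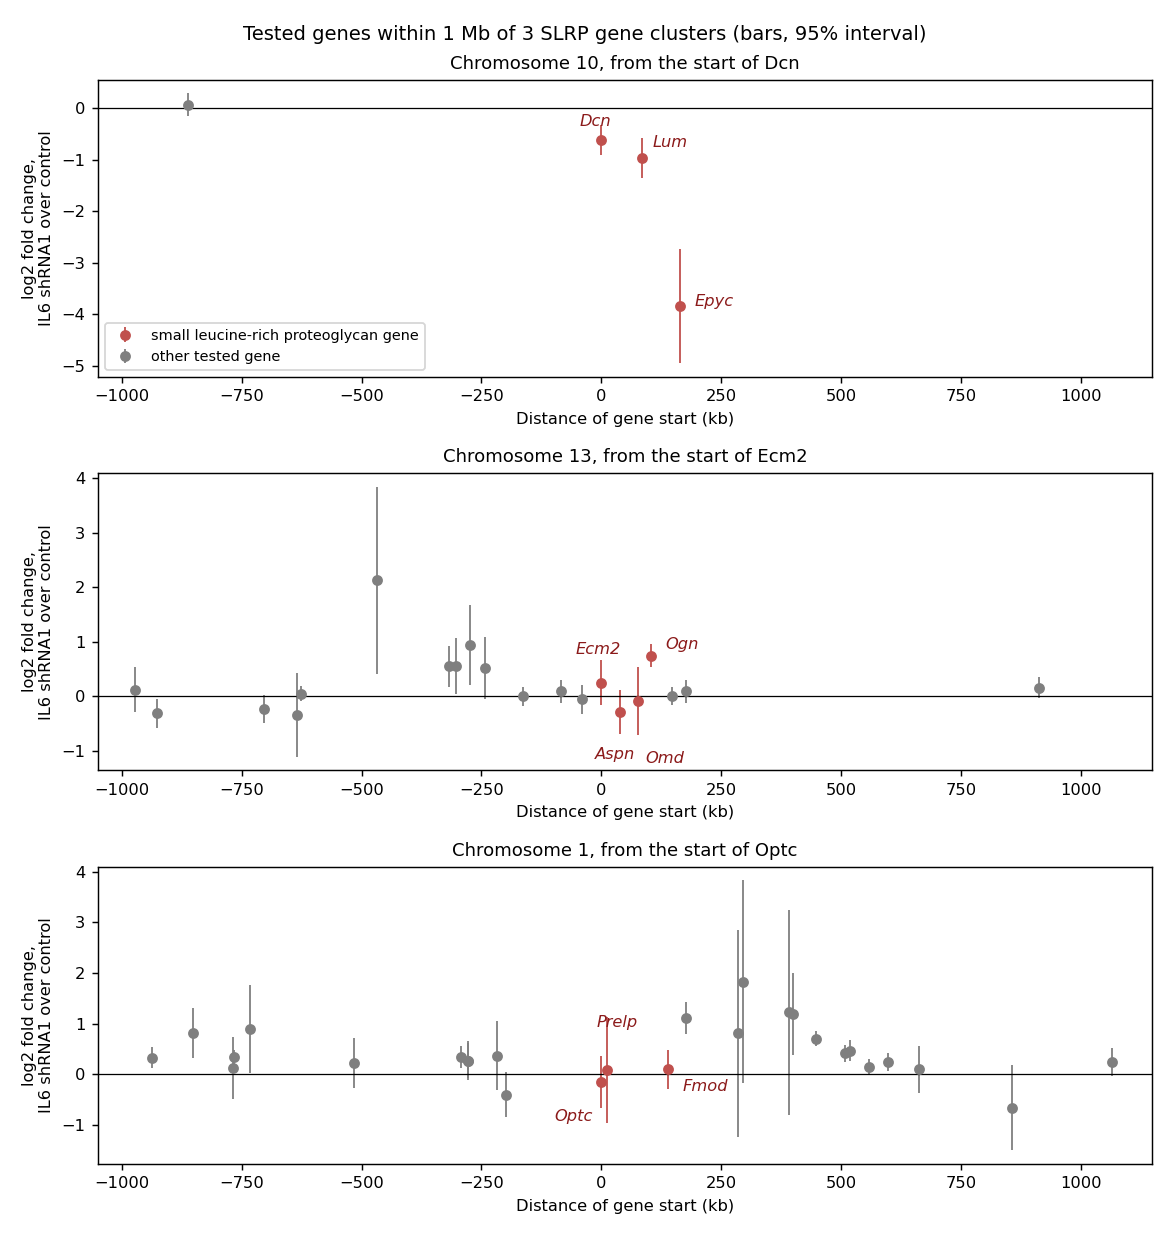
Log2 fold change of IL6 shRNA1 over control (y axes) with 95% intervals for the tested genes within 1 Mb of 3 SLRP gene groups, by distance of the gene start from the first SLRP gene (x axes, kb). SLRP genes are red and other genes grey: Dcn, Lum and Epyc lie below 0 on chromosome 10, Ogn lies above Ecm2, Aspn and Omd on chromosome 13, and Optc, Prelp and Fmod lie near 0 on chromosome 1.

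The promoters of the chromosome 13 genes are shown because Ogn rose while its neighbours Aspn and Omd did not pass the test, and that of Epyc because it had the largest difference among the tested SLRP genes. They are the 250 bases before the RefSeq transcription start, on build GRCm38.p6, read 5′ to 3′ on the plus strand, which is the strand of all 4 genes. Of the 10 members, 8 had such a window, and Lum and Dcn had none. The motifs searched on both strands were TTCNNNGAA (the STAT site), TGANTCA (the AP-1 site), TATAAA and CCAAT, and capitals mark a match.
Ogn, chr13:49607765-49608014: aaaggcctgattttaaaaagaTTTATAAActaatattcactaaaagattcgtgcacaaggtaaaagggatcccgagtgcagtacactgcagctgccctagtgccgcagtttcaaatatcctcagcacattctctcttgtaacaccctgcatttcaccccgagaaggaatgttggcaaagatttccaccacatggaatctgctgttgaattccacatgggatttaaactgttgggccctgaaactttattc
Aspn, chr13:49544193-49544442: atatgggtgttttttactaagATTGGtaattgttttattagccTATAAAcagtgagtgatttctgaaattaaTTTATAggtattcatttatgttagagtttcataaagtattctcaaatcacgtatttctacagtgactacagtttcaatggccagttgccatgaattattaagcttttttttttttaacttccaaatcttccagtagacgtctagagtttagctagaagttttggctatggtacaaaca
Omd, chr13:49582212-49582461: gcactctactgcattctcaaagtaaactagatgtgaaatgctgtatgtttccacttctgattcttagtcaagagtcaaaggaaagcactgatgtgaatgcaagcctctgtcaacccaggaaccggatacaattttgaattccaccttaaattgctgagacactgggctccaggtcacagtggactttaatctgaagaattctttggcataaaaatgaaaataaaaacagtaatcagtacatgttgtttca
Epyc, chr10:97643818-97644067: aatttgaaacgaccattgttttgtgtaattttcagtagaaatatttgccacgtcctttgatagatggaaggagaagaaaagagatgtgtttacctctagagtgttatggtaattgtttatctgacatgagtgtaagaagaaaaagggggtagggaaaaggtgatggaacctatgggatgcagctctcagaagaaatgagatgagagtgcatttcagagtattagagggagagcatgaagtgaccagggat
The Ogn window held TATAAA once on each strand, overlapping, at 229 to 224 and 227 to 222 bases before the start. The Aspn window held it at 207 to 202 and, on the minus strand, 178 to 173 bases before the start, with CCAAT on the minus strand at 229 to 225 bases, and the Omd and Epyc windows held none of the 4 motifs. No window of the 8 members held the STAT or the AP-1 letters, which occurred in 7.02% and 6.75% of 32851 RefSeq windows of the same length. TATAAA occurred in 12.4% and CCAAT in 33.9% of those windows.

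Several members that were not called were high in the same libraries of both groups. Prelp, Podn and Kera were highest in IL6 shRNA1 library 5 within the IL6 shRNA1 group and in control library 1 within the control group, as was Chad, a cartilage SLRP, at 3.55 CPM in IL6 shRNA1 library 5 and 6.37 CPM in control library 1. Summed muscle markers were 9281 CPM in IL6 shRNA1 library 5, the highest of its group, and 190 CPM in control library 1, which was not the highest of the control group. Aspn and Omd were both high in IL6 shRNA1 library 1 and control libraries 2 and 5. The summed fibril collagens and partner proteins were highest in the same control libraries, and in IL6 shRNA1 libraries 1 and 5, at 128474, 84464, 70291, 68251 and 110087 CPM in the IL6 shRNA1 libraries and 77987, 126454, 66012, 84682 and 142355 CPM in the control libraries. The part of these cell types in the member values was not tested beyond the covariate fits given for single genes, and that of the collagens was not tested.

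Enzymes that build the chondroitin and dermatan sulfate chains were mostly not called: of 22 tested, 4 were called as higher, 1 as lower and 17 not, with a median log2 fold change of 0.10. Chst12, a chondroitin 4-O-sulfotransferase, averaged 129 CPM in IL6 shRNA1 libraries and 99.3 CPM in control libraries (log2 fold change 0.37, adjusted p = 0.0158 in edgeR), and Fam20b, a kinase that phosphorylates xylose in the linker of the chain, averaged 107 CPM in IL6 shRNA1 libraries and 90.7 CPM in control libraries (0.24, adjusted p = 0.0203 in edgeR). Chsy3, a chondroitin synthase, averaged 10.8 CPM in IL6 shRNA1 libraries and 7.45 CPM in control libraries (0.53, adjusted p = 0.0199 in edgeR), and its call was lost without IL6 shRNA1 library 2 or control library 5, at log2 fold changes of 0.51. Dse, the epimerase that turns chondroitin into dermatan sulfate, averaged 115 CPM in IL6 shRNA1 libraries and 96.02 CPM in control libraries (0.26, adjusted p = 0.0342 in edgeR). The call of Dse was lost without IL6 shRNA1 library 3 or 5 or control library 2, 3 or 4, with log2 fold changes of 0.25 to 0.27 and adjusted p of at most 0.0625. The enzyme called as lower was Chsy1, also a chondroitin synthase, at 229 CPM in IL6 shRNA1 libraries and 309 CPM in control libraries (-0.43, adjusted p = 0.0383 in edgeR), and this call was lost without any of 6 single libraries (IL6 shRNA1 2, 3, 4 or 5, control 2 or 5), with log2 fold changes of -0.43 to -0.35. Without the 3 farthest libraries, and with either the leukocyte or the fibroblast and pericyte score as a covariate, 0 of these 22 enzymes were called in edgeR, while 6, 6 and 5 had an unadjusted p under 0.05.

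Of 8 tested keratan sulfate enzymes, which serve the chains of lumican and fibromodulin, 2 were called as higher and 0 as lower, with a median log2 fold change of 0.32. B3gnt7, which extends the chain, averaged 4.11 CPM in IL6 shRNA1 libraries and 1.91 CPM in control libraries (log2 fold change 1.10, adjusted p = 0.0135 in edgeR), and B4galt1, a galactosyltransferase with many substrates, averaged 423 CPM in IL6 shRNA1 libraries and 320 CPM in control libraries (0.40, adjusted p = 0.0215 in edgeR). The count of 2 was 1 with either the leukocyte or the fibroblast and pericyte score as a covariate, and 0 without the 3 farthest libraries, where 3 had an unadjusted p under 0.05 in edgeR. DESeq2 called 2 of the 8 as higher and 2 as lower.

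Of 23 tested fibril collagens and partner matrix proteins, such as crosslinking enzymes and fibronectin, 1 was called as higher, 0 as lower and 22 not, with log2 fold changes of -1.005 to 1.43 and a median of 0.03. The called one, Col11a1, a minor fibril collagen, averaged 771 CPM in IL6 shRNA1 libraries and 520.5 CPM in control libraries (0.57, adjusted p = 0.0311 in edgeR). Its call was lost without IL6 shRNA1 library 2 or 5 or control library 2, 3 or 5, with log2 fold changes of 0.48 to 0.59 and an adjusted p of at most 0.08. It was also lost without the 3 farthest libraries and with each of the leukocyte, fibroblast and pericyte, and muscle scores.

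Among 24 tested receptors and ligands of SLRPs, 5 were called as higher, 1 as lower and 18 not, with a median log2 fold change of 0.23. C1qa, a subunit of the complement protein C1q that several SLRPs bind, averaged 467 CPM in IL6 shRNA1 libraries and 204 CPM in control libraries (1.19, adjusted p = 0.0328 in edgeR), and Cd14, a co-receptor of TLR2 and TLR4, averaged 22.3 CPM in IL6 shRNA1 libraries and 9.95 CPM in control libraries (1.16, adjusted p = 0.0347 in edgeR). The calls of C1qa and Cd14 were each lost without any of 7 single libraries (IL6 shRNA1 2, 3, 4 or 5 and control 2 or 5 for both, control 4 for C1qa and control 1 for Cd14), with log2 fold changes of 1.012 to 1.204 and adjusted p of at most 0.0812. P2rx7, an ATP receptor, averaged 30.2 CPM in IL6 shRNA1 libraries and 22.6 CPM in control libraries (0.42, adjusted p = 0.0238 in edgeR), a call lost without IL6 shRNA1 library 2 or control library 2 or 3, at log2 fold changes of 0.41 to 0.44. C1qa and Cd14 are also expressed by leukocytes, and the part of leukocytes in their values was not tested beyond a covariate fit. With the leukocyte score as covariate, C1qa had a log2 fold change of 0.40 and Cd14 of 0.69, and neither was called (adjusted p = 0.304 and 0.497 in edgeR). That fit called 140 of all tested genes and 0 of these 24, of which 6 had an unadjusted p under 0.05. The count of receptors and ligands called as higher was 1 to 7 when single libraries were left out, 8 in DESeq2 and 0 without the 3 farthest libraries, where 7 of the 24 had an unadjusted p under 0.05 in edgeR.

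Of 15 tested proteases and processing factors of SLRPs and collagens, 3 were called as higher and 0 as lower, with a median log2 fold change of 0.18. Pcolce2, an enhancer of procollagen processing, averaged 29.6 CPM in IL6 shRNA1 libraries and 11.6 CPM in control libraries (1.35, adjusted p = 0.00345 in edgeR). Mmp13, a collagenase that also cuts fibromodulin, averaged 60.5 CPM in IL6 shRNA1 libraries and 16.5 CPM in control libraries (1.87, adjusted p = 0.0334 in edgeR), and Adamts5, an aggrecan-cleaving protease, averaged 74.7 CPM in IL6 shRNA1 libraries and 35.9 CPM in control libraries (1.06, adjusted p = 0.04 in edgeR). The calls of Mmp13 and Adamts5 were each lost without any of 6 single libraries (IL6 shRNA1 2 or 5 and control 2 or 3 for both, control 4 or 5 for Mmp13, IL6 shRNA1 3 or 4 for Adamts5), with log2 fold changes of 1.56 to 1.97 for Mmp13 and 0.95 to 1.08 for Adamts5 and adjusted p of at most 0.0822. The count of 3 was 0 with the leukocyte score as a covariate, where 4 had an unadjusted p under 0.05 in edgeR, and it was 1 with the fibroblast and pericyte score, with the muscle score, without the 3 farthest libraries or with no filter on low counts. It was 1 to 4 when single libraries were left out, and DESeq2 called 2 proteases as lower and library totals alone 1.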

How the data were processed

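RNA-seq libraries (total RNA, NEBNext Ultra II, per the labels' protocols) came from 5 samples labelled IL6 shRNA1 and 5 labelled control shRNA. Per the submitters' processing notes, the tools included STAR 2.7.0f, featureCounts from Subread 1.6.4, Trim Galore 0.6.6, FastQC 0.11.9 and SAMtools 1.11, and the builds were mm10 and GRCm38. The deposited count table holds raw counts per gene. The deposited FPKM table holds the same genes as FPKM, which equalled count over a fixed gene length and column total within a relative deviation of 3e-07. Positions come from the deposited count table. The handling of multimapping reads and of strand is not given in the sources used here. Nothing says that the samples came from separate cultures or animals, so p-values measure the spread between these samples, which may be technical.

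Counts were analysed with edgeR 4.0.16 in R 4.3.3: filterByExpr (minimum count 10), TMM scaling, robust quasi-likelihood fit on group, Benjamini-Hochberg adjustment over 15064 genes. Members were not pre-filtered. For Kera, CPM was compared by an exact permutation test over 252 regroupings, whose smallest p is 0.0079. List scores are means of centred log2 CPM. Alternatives were other scalings and filters, DESeq2 1.42.0, limma 3.58.1 with voom, FPKM with pseudocounts of 1 and 0.1, a stricter adjusted p of 0.01, omitted libraries, and list scores as covariates. The fit was tested on simulated data of 14882 genes. It recovered 74 of 100 genes changed by a log2 fold change of 1 and 92 of 100 changed by 2, with 7 false calls. The simulated counts were drawn for each gene on its own. The false calls therefore do not cover differences that many genes share between libraries, as along the first principal component. Smaller changes were not simulated. Matching replicate numbers were checked as pairs. No pair of same-group libraries agreed within counting noise.

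Named were all 10 members, Il6 and, of each other list, up to 4 called genes with the smallest p, or the most abundant if none was called. Of the genes this rule takes, 1 is left out of the text. Marker lists are given in counts and sums, and most of their genes are not named. Chsy1 was named after its values were seen, as were genes near the members and all ratios. The members and lists were chosen with earlier results of these data known. Promoter windows are RefSeq's. Python 3.11.15 with pandas 2.3.3 and matplotlib 3.10.9 drew the figures.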

Additional observations from a re-analysis of the deposited data

Results flagged for a closer look

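In 53 genes, the 5 libraries of each group were checked for a value whose gap to its nearest neighbour exceeded Dixon's 95% limit, and 12 of 106 groups were flagged, where chance flags about 1 in 20. Of the 20 groups of members, 2 were flagged, both for Kera. Kera stood at 2.911 CPM in IL6 shRNA1 library 5, with the next IL6 shRNA1 library at 0.195 CPM, and at 3.649 CPM in control library 1, with the next control library at 0.536 CPM. Nyx, also an SLRP, stood at 0.3276 CPM in IL6 shRNA1 library 3, with the next at 0.106 CPM.

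IL6 shRNA1 library 5 stood apart for genes of muscle and skin, and for Ocln, of the tumour epithelial and mesothelial list. Acta1 stood there at 3392 CPM and Myh4 at 2703 CPM, both skeletal muscle genes, Krt14, a keratin of skin, at 341.1 CPM, and Ocln, an epithelial junction gene, at 1.958 CPM. IL6 shRNA1 library 1 was low for C1qa (251.7 CPM, next 488.4 CPM) and Tlr2 (32.33 CPM, next 48.92 CPM). IL6 shRNA1 library 3 was apart for B3gnt7 (5.405 CPM, next 3.969 CPM) and Upk3b, a mesothelial and urothelial gene (135.2 CPM, next 117.8 CPM). Control library 5 was apart for Dse (107.8 CPM, next 95.1 CPM).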

How the results depend on the processing

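Under 26 alternative settings, Ogn was called as higher in each. The count of members called as lower was 1 at an adjusted p under 0.01, 0 without the 3 farthest libraries (IL6 shRNA1 5, control 2 and 5), 0 with the leukocyte score, 0 with the fibroblast and pericyte score and 1 with the muscle score as a covariate, against 2 otherwise. Where it was 0 in edgeR, Lum and Dcn both had an unadjusted p under 0.05. The covariate for the muscle score was added after the data were seen. The count of called genes, 1775 in the reported analysis, was 3027 in DESeq2, 381 at an adjusted p under 0.01, 212 without the 3 farthest libraries, 140 with the leukocyte score, 185 with the fibroblast and pericyte score and 591 with the muscle score. Of the 1775, 203 were among the 212, 136 among the 140, 180 among the 185 and 553 among the 591. It ran from 864 (without control library 5) to 2774 (without IL6 shRNA1 library 1) when single libraries were left out, at 869, 1024, 1154 and 989 without IL6 shRNA1 libraries 2, 3, 4 and 5 and 875 without control library 2. The cause was not tested.

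The replicate numbers gave no clear sign of pairs. Same-numbered libraries correlated at -0.28 to 0.27 and 2 of 5 pairs exceeded 0.1, with 1 of 5 best matched to its own number. With 5 pairs, this check cannot establish that the samples were unpaired. The replicate block gave 755 called genes, with Lum at an adjusted p of 0.0182, Dcn at 0.0311 and Ogn at 0.0151 in edgeR.

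Reversed log2 fold changes concerned genes that did not pass the test. Prelp was -0.00068 with voom, -0.69 without the 3 farthest libraries, -0.85 with the leukocyte, -0.96 with the fibroblast and pericyte and -0.49 with the muscle score. Omd was 0.38, 0.55, 0.38 and 0.34 without the 3 farthest libraries and with those 3 scores. With the leukocyte score Eng was -0.0076, Acta1 -0.047, Il6 -0.43 and Ecm2 -0.055, and with the fibroblast and pericyte score Eng was -0.049 and Acta1 -0.013. Leaving out single libraries gave -0.38 to 0.50 for Prelp, -0.27 to 0.12 for Omd, -1.30 to 0.22 for Chad and, as a difference in CPM, -0.91 to 0.33 for Kera. At 0 to 86 counts per library, Kera allows no firm statement.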
